A study of Mus musculus with 6 samples.

Results

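The genes described here belong to 7 solute carrier families that move amino acids and their relatives across membranes. They were chosen by a rule on the symbol, as every gene of the deposited table named Slc1a, Slc3a, Slc6a, Slc7a, Slc36a, Slc38a or Slc43a followed by a number and nothing else. Earlier results of these data were known when this choice was made. The rule found 61 of the 55450 genes listed. Of these 30 had a mean level of at least 0.5 CPM (CPM is the count of a gene per 1e+06 counts of its library, with library sizes scaled by TMM) and are called expressed below, and 31 were under it. Symbols with a letter after the number, such as Slc6a20a and Slc7a6os, fell outside the rule.

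Amino acid transporters set which amino acids a hepatocyte can take up from portal blood, return to the circulation or move out of its lysosomes. Slc38 members carry glutamine and other small neutral amino acids with sodium, Slc7 members carry cationic amino acids or, joined to a heavy chain from the Slc3 family, exchange large neutral amino acids. Slc1 members carry glutamate or small neutral amino acids, and Slc6 members carry taurine, betaine, creatine, glycine and related solutes. The Slc36 family includes proton-coupled carriers, and Slc43 members are facilitative. In liver this uptake feeds ureagenesis, gluconeogenesis and protein synthesis.

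Each of 6 mice, strain C57BL/J per the labels, gave 1 library of polyA RNA prepared from its left hepatic lobe. The knockout (KO) group held 3 LKB1 fl/fl mice and the wild-type (WT) group 3 mice of normal genotype. Both groups received AAV8 Cre, an adeno-associated virus carrying the Cre recombinase, at 6 weeks of age, and were sampled 4 weeks later at 10 weeks of age. The labels name no promoter for Cre, and AAV8 is a serotype that is commonly used to reach hepatocytes. The series title names metabolic reprogramming of LKB1-deficient liver as the subject, so each transporter was compared between KO and WT. Because the tissue is whole liver lobe, fewer cells of a type and less RNA per cell cannot be told apart.

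The libraries held 47659122 to 56147667 counts. Stk11, which encodes LKB1, was at 22.2, 14.4 and 11.4 CPM in KO 1 to 3 and at 66.1, 64.2 and 69.7 CPM in WT 1 to 3, which is -2.06 ± 0.247 (SE) as a log2 fold change (adjusted p = 0.0167 in edgeR's quasi-likelihood test). KO 1 and WT 1 had 42472 and 29243 Xist counts and at most 6 counts of 4 Y-linked genes, whereas the other 4 libraries had at most 16 Xist counts and at least 6146 Y-linked counts. The labels do not mention this split, which falls alike in KO and WT, so values are given for each subset too. A comparison of KO 1 with WT 1 has no replicates. The hepatocyte markers Alb, Apoa1, Apob, Ttr, Cps1, Tat, Hnf4a and Serpina1a summed to 29220 to 76240 CPM in KO and 85900 to 123600 CPM in WT, so hepatocyte RNA was present in every library. Over all genes 313 were called as higher and 177 as lower (63.9% higher), and scaling by library size alone gave 380 and 131 (74.4% higher).

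Slc7a2 was the only one of the 30 expressed members to pass the threshold, an adjusted p under 0.05 over all 14539 genes tested, in edgeR's quasi-likelihood test. It was higher in KO. The share of called members, 1 of 30 or 3.33%, lay beside 3.37% of all genes tested (2.15% higher and 1.22% lower). In this fit the members were thus called about as often as all genes, and other fits gave other shares. No member was called as lower by edgeR, while 3 had an unadjusted p under 0.05 with a lower level in KO. DESeq2 called 9 as higher and 1 as lower (33.3% of the members), against 7.98% and 6.45% of all genes. The limma voom fit called 1 and 0, against 1.75% and 1.22%. All 30 expressed members passed the filter on low counts. At an unadjusted p under 0.05 there were 15 members (50%), 12 of them with a higher level in KO, against 26.2% of all genes. The 3 KO libraries lay above the 3 WT libraries for 9 members and below them for 4, against 16.9% and 15.5% of all genes, or 13 members (43.3%) against 32.4% in either direction. The median log2 fold change of the 30 members was 0.08, and that of all genes tested was 0.01.

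This count depended on single libraries. Without KO 1 the fit called 10 members as higher and 3 as lower, against 16.2% and 13.9% of all genes. Without WT 2 or without WT 3 edgeR called 0 members, while 10 and 7 had an unadjusted p under 0.05, and 0.0402% and 0.133% of all genes were called. Leaving out KO 2, KO 3 or WT 1 left 1 member called, with 0.579%, 0.233% and 1.75% of all genes. With the Xist state as an added term the fit called 2 members higher and 1 lower, against 5.36% and 4.99% of all genes.

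**Figure D1:**
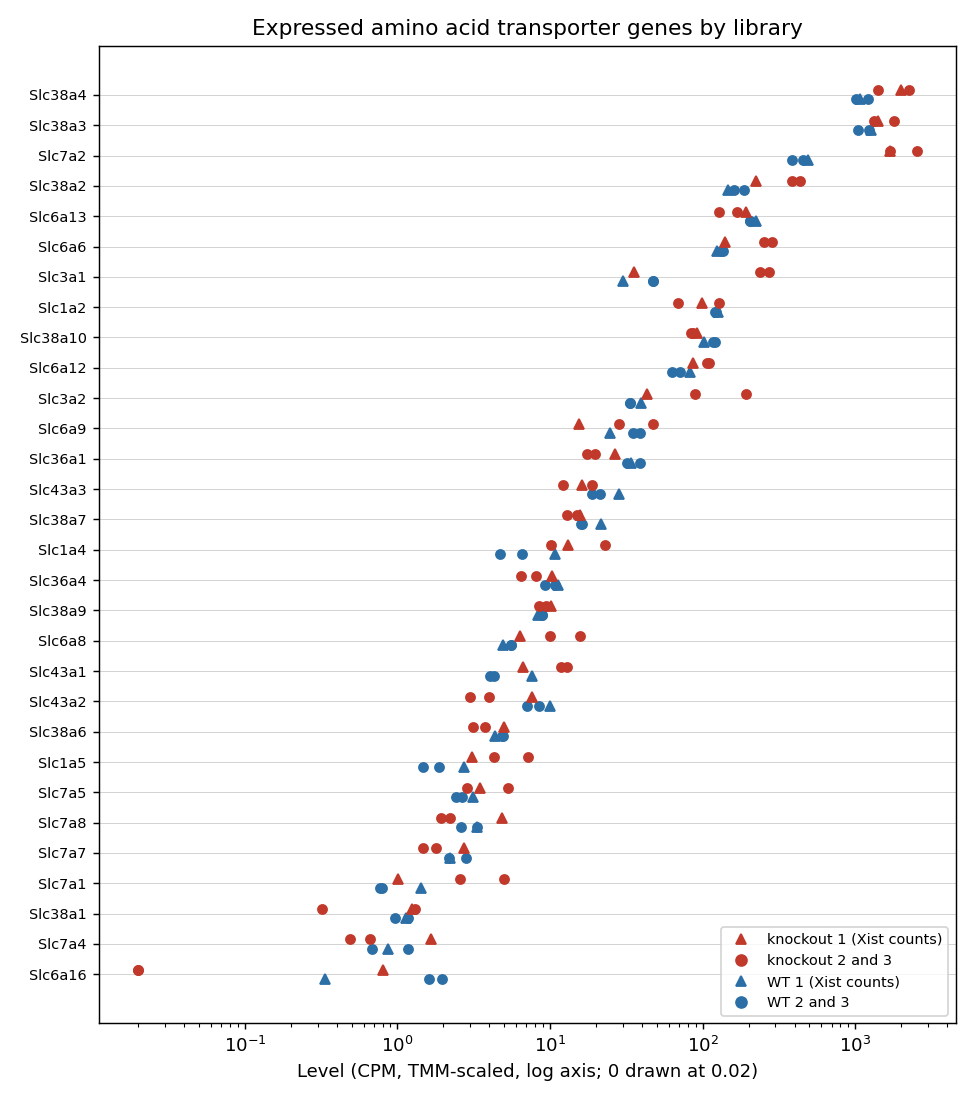
Level of each of the 30 expressed transporter genes in every library, in CPM on a log axis, with KO in red, WT in blue and the libraries with Xist counts as triangles. Slc7a2 separates the groups, with KO libraries at 1680 to 2522 CPM and WT libraries at 384 to 489 CPM, whereas for Slc3a1 and Slc43a1 only the KO circles stand to the right.

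The Slc7 members that work without a heavy chain are mainly carriers of cationic amino acids, which some members with a heavy chain also move. Slc7a2 (ENSMUSG00000031596.15, GRCm38 chromosome 8, 40862396 to 40922308, plus strand, protein-coding) encodes CAT2, a carrier of arginine, lysine and ornithine that is the main member of its kind in liver. It was at 1699, 1680 and 2522 CPM in KO 1 to 3 and at 489, 454 and 384 CPM in WT 1 to 3. Every KO library was above every WT library, KO 1 included. The means were 1967 ± 481 and 442 ± 53.6 CPM (SD, n = 3 each). This 4.45-fold difference, 2.15 ± 0.247 (SE) on the log2 scale, had an adjusted p of 0.0147 in edgeR. Between KO 1 and WT 1 the log2 ratio was 1.80, and among the other 4 libraries it was 2.30. The adjusted p in edgeR was 0.112 without WT 2 and 0.104 without WT 3. The gene gives a low-affinity and a high-affinity form by alternative splicing, which a count over the whole gene cannot separate. Its exons share 635 nt with Gm26584 on the opposite strand, which had 5 counts in all libraries together.

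Slc7a1 (chromosome 5, 148327410 to 148399904), which encodes the widely expressed carrier CAT1, was far less abundant. It was at 1.01, 4.99 and 2.57 CPM in KO 1 to 3 and at 1.42, 0.77 and 0.79 CPM in WT 1 to 3. KO 1 lay inside the WT range and KO 2 and KO 3 above it, and the log2 fold change of 1.52 ± 0.589 (SE) did not pass the threshold (adjusted p = 0.164 in edgeR). Per kilobase of annotated exon, Slc7a2 was at 48.4 and Slc7a1 at 0.0862 CPM per kb in WT. Slc7a4, an orphan member of this group, was under 2 CPM in every library, with a log2 fold change of 0.04 ± 0.518 (adjusted p = 0.964). Slc7a3, another cationic carrier, had at most 2 counts in a library.

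The most abundant members belonged to the Slc38 family of glutamine and neutral amino acid carriers. Per kilobase of exon Slc38a4 and Slc38a3 ranked first and second among the 61 genes, at 258 and 223 CPM per kb in WT and at 445 and 286 CPM per kb in KO, and Slc7a2 was next over all 6 libraries. Slc38a4 (chromosome 15, 96994820 to 97055956), a system A carrier of neutral amino acids that is enriched in liver, was at 2007, 1414 and 2263 CPM in KO 1 to 3 and at 1074, 1211 and 1015 CPM in WT 1 to 3. The groups did not overlap, but the difference of 0.78 ± 0.237 (SE) in log2 had an adjusted p of 0.103 in edgeR. Of 15 alternative fits 1 called Slc38a4, DESeq2, at 0.77 ± 0.228 (SE, adjusted p = 0.00888 in its Wald test). Slc38a3 (chromosome 9, 107650634 to 107669530), the system N carrier of glutamine, histidine and asparagine, was at 1400, 1330 and 1797 CPM in KO and at 1277, 1225 and 1035 CPM in WT. Its groups did not overlap either, with a difference in log2 of 0.36 ± 0.21 and an adjusted p of 0.323.

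Slc38a2 (chromosome 15, 96687392 to 96699730), the system A carrier that many cells induce when amino acids are scarce, was at 224, 382 and 438 CPM in KO 1 to 3 and at 147, 186 and 161 CPM in WT 1 to 3. All KO libraries were above all WT libraries, and KO 1 was the nearest to WT. The difference in log2 was 1.08 ± 0.267 (SE), and its adjusted p was 0.0719 in edgeR. In a refit of the 4 libraries with Y-linked counts it was 1.23 ± 0.161 with an adjusted p of 0.00492. Slc38a1, another system A gene, was at 0.318 to 1.296 CPM in KO and 0.964 to 1.176 CPM in WT. Slc38a10 and Slc38a6, whose transport roles are less well defined, had log2 fold changes of -0.37 ± 0.127 (adjusted p = 0.132) and -0.25 ± 0.217 (adjusted p = 0.492). For Slc38a10 every KO library, at 84.4 to 92.2 CPM, lay below every WT library, at 102 to 121 CPM.

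Slc1a4 and Slc1a5 encode the sodium-dependent neutral amino acid exchangers ASCT1, a carrier of serine, alanine and cysteine, and ASCT2, a glutamine carrier. Slc1a5 (chromosome 7, 16781340 to 16798274) was at 3.09, 7.20 and 4.31 CPM in KO 1 to 3 and at 2.72, 1.47 and 1.88 CPM in WT 1 to 3. The groups did not overlap, although KO 1 and WT 1 were close, and the log2 fold change was 1.27 ± 0.382 (SE, adjusted p = 0.102 in edgeR). Slc1a4 (chromosome 11, 20302180 to 20332713) was at 13.1, 22.8 and 10.1 CPM in KO and at 10.8, 4.70 and 6.52 CPM in WT. Here WT 1 lay above KO 3, and the log2 fold change was 1.06 ± 0.397 with an adjusted p of 0.152. In the refit of the libraries with Y-linked counts both were higher in KO, by 1.78 ± 0.316 (adjusted p = 0.0116) for Slc1a5 and 1.55 ± 0.403 (adjusted p = 0.0349) for Slc1a4.

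Slc1a2 (chromosome 2, 102658659 to 102790784) encodes the glutamate transporter GLT-1, which in liver is known from the hepatocytes around the central vein that also make glutamine. It was at 98.4, 68.6 and 127.9 CPM in KO 1 to 3 and at 125.8, 120.5 and 121.8 CPM in WT 1 to 3. KO 3 was above all WT libraries and KO 1 and KO 2 below them, and the difference in log2 was -0.32 ± 0.226 (SE, adjusted p = 0.403 in edgeR). Glul, the glutamine synthetase gene of the same cells, chosen after its values were seen, was at 476, 30.3 and 76.6 CPM in KO and 925 to 1090 CPM in WT (log2 fold change -2.35 ± 0.93, adjusted p = 0.17). The other glutamate carriers of the family were under 0.5 CPM.

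The Slc3 family has 2 members, and both are heavy chains that bring a Slc7 light chain to the cell surface. Slc3a1 (ENSMUSG00000024131.8, chromosome 17, 85028376 to 85064236, plus strand) encodes rBAT, the partner of the cystine and dibasic amino acid exchanger Slc7a9. It was at 35.75, 235.8 and 273.3 CPM in KO 1 to 3 and at 30.1, 47.1 and 47.5 CPM in WT 1 to 3. KO 2 and KO 3 were far above all WT libraries, whereas KO 1 was inside the WT range. The pooled log2 fold change of 2.13 ± 0.677 (SE) did not pass the threshold (adjusted p = 0.113 in edgeR). In the refit without KO 1 and WT 1 it was 2.42 ± 0.141 with an adjusted p of 0.000585. The 3′ end of Slc3a1 shares 601 nt of exon with Prepl on the opposite strand. Prepl differed in the other direction, at 16.1 to 17.4 CPM in KO and 25.1 to 26.8 CPM in WT (adjusted p = 0.0331).

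Slc3a2 (ENSMUSG00000010095.13, chromosome 19, 8706882 to 8723369, minus strand) encodes 4F2hc (CD98), the heavy chain of the exchangers LAT1, LAT2, y+LAT1, y+LAT2 and xCT. It was at 42.9, 191 and 88.5 CPM in KO 1 to 3 and at 39.5, 33.5 and 33.2 CPM in WT 1 to 3. The groups did not overlap, but KO 1 exceeded WT 1 only slightly and KO 2 was the highest library. The log2 fold change was 1.60 ± 0.491 (SE, adjusted p = 0.106 in edgeR), and 2.06 ± 0.358 (adjusted p = 0.0108) in the refit of the libraries with Y-linked counts.

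The light chain genes Slc7a5, Slc7a7 and Slc7a8 did not pass the threshold. Slc7a5, which encodes LAT1, was at 3.50, 5.33 and 2.86 CPM in KO and at 3.14, 2.41 and 2.63 CPM in WT, with overlapping groups and an adjusted p of 0.285. Slc7a8, which encodes LAT2, and Slc7a7, which encodes y+LAT1, had log2 fold changes of -0.05 ± 0.38 and -0.26 ± 0.298, with adjusted p-values of 0.949 and 0.607 in edgeR. Slc7a7 shares 232 nt of exon with Oxa1l on the opposite strand, which was at 39.4 to 65.1 CPM, so its values of 1.46 to 2.801 CPM are uncertain without strand information. Slc7a9, the partner of Slc3a1, had at most 4 counts in any library.

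Per kilobase of exon, Slc3a2 was at 9.41 to 11.2 CPM per kb in WT, and the summed level of its 5 light chains Slc7a5, Slc7a6, Slc7a7, Slc7a8 and Slc7a11 was 1.86 to 2.31. The ratio of Slc3a2 to these light chains was 4.14 to 5.09 in WT and 4.27 in KO 1, and it was 20.3 in KO 2 and 14.9 in KO 3. The light chain sum was 2.85, 2.67 and 1.68 CPM per kb in KO 1 to 3, so KO 1 and KO 2 lay above the WT range and KO 3 below it. Slc3a1 was at 104 and 120 CPM per kb in KO 2 and KO 3 and at 13.3 to 20.9 in WT.

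**Figure D2:**
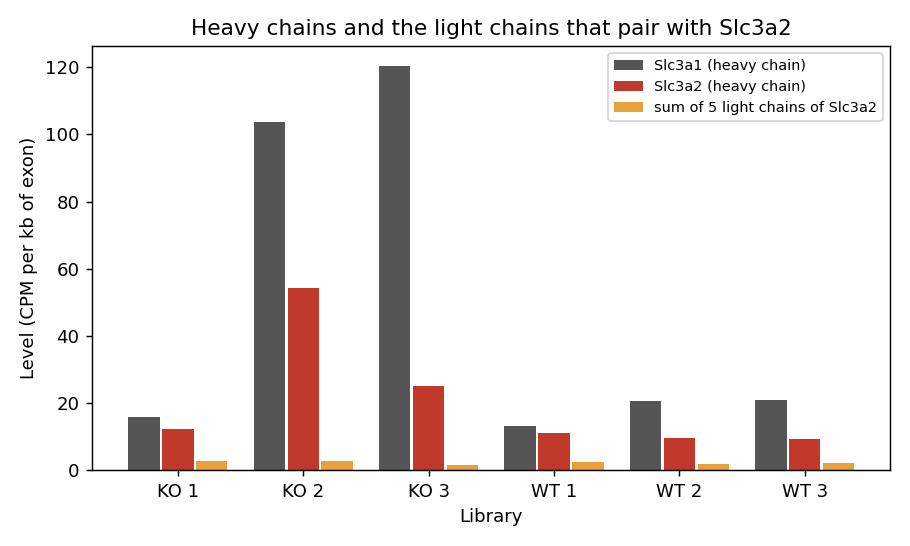
Level of the heavy chains Slc3a1 and Slc3a2 and the summed level of the 5 light chains of Slc3a2 in each library, in CPM per kb of annotated exon; bars are single libraries. Both heavy chains stand out in KO 2 and KO 3, while the light chain sum stays between 1.68 and 2.85 in all 6 libraries.

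The promoter windows of 4 members are shown because these genes were among those called as higher in the refit of the libraries with Y-linked counts, and because amino acid shortage and cAMP signalling are known to act through short motifs. The members shown were picked after their values had been seen. Each window holds 250 bases before and 50 after a transcription start of RefSeq on GRCm38.p6, 5′ to 3′ on the gene's strand, and capitals mark matches on either strand to TGACG, the core of the cAMP response element, or to TGATGNAA, a C/EBP-ATF composite element.
Slc38a2, chr15:96699679-96699978, minus strand: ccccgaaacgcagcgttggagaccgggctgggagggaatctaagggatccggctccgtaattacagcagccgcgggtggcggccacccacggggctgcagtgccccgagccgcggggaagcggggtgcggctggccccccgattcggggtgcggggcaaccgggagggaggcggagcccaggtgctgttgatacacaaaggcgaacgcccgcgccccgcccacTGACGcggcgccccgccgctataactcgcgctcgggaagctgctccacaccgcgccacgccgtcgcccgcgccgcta
Slc1a4, chr11:20332664-20332963, minus strand: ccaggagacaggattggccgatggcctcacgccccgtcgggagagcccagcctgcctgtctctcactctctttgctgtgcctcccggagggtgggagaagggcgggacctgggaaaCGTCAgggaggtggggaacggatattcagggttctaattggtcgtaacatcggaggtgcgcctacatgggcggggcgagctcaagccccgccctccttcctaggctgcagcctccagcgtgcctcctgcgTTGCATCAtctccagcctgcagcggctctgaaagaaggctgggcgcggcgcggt
Slc3a1, chr17:85028097-85028396, plus strand: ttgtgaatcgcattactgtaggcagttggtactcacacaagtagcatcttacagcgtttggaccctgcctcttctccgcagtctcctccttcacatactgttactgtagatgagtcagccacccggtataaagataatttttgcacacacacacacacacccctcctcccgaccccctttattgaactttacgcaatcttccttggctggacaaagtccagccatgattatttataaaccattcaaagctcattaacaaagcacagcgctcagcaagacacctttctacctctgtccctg
Slc3a2, chr19:8713848-8714147, minus strand: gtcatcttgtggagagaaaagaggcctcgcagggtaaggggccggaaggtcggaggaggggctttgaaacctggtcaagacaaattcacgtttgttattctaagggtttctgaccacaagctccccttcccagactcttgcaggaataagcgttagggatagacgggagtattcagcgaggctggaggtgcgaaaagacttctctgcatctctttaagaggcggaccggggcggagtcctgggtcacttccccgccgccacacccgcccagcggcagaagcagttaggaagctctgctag

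The Slc1a4 window held 1 match to TGATGNAA, read as its reverse complement and beginning 4 bases before the start, and 1 match to TGACG beginning 134 bases before it. The Slc38a2 window held 1 match to TGACG, 27 bases before the start. The windows of Slc3a1 and Slc3a2 held neither, which says only that these letters are not in these windows. The Slc3a2 window lies inside the gene span given above, and the annotated 5′ end at 8723369 was not searched. Of the 30 expressed members 21 had a window, 9 of them with TGACG (42.9%) and 2 with TGATGNAA (9.52%, Slc1a4 and Slc7a7), against 23.0% and 4.51% of all genes with a window. The other 9 members had no window and were not searched. Slc7a2, the only member called in the main fit, is among them, as are Slc38a3, Slc6a6, Slc6a8 and Slc1a5. The full element TGACGTCA, which contains TGACG on both strands, was found only in Slc38a6 among the 21, against 2.03% of all genes. Some genes have several windows, and a gene counts once if any window matched. The 21 members had 37 windows and all 27025 genes had 32851. Members thus had more windows each in which to match, and the shares per gene are not like for like. A match is a description of the sequence and not a site of binding.

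Slc43a1 encodes LAT3 and Slc43a2 encodes LAT4, sodium-independent carriers of branched-chain and other large neutral amino acids. Slc43a1 (ENSMUSG00000027075.16, chromosome 2, 84838850 to 84863594, plus strand) was at 6.66, 11.8 and 12.99 CPM in KO 1 to 3 and at 7.67, 4.05 and 4.30 CPM in WT 1 to 3. KO 1 lay below WT 1 while KO 2 and KO 3 were above all WT libraries, and the pooled log2 fold change was 0.97 ± 0.344 (SE, adjusted p = 0.138 in edgeR). Without KO 1 and WT 1 it was 1.57 ± 0.138 (adjusted p = 0.00163). Slc43a2 had the opposite sign, at 7.63, 3.98 and 2.97 CPM in KO and 10.03, 7.10 and 8.45 CPM in WT (log2 fold change -0.81 ± 0.355, adjusted p = 0.204). Slc43a3, whose product carries purine bases rather than amino acids, was at 12.2 to 18.9 CPM in KO and 18.8 to 28.1 CPM in WT (adjusted p = 0.176).

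The Slc6 family held 19 members, of which 6 were expressed. Slc6a6 (chromosome 6, 91684053 to 91759066), the taurine transporter, was at 141, 253 and 283 CPM in KO 1 to 3 and at 123, 136 and 131 CPM in WT 1 to 3. The groups did not overlap and the log2 fold change was 0.79 ± 0.263 (SE, adjusted p = 0.122 in edgeR), with 1.00 ± 0.136 (adjusted p = 0.00539) in the refit of the libraries with Y-linked counts. Slc6a8 (chromosome X, 73673150 to 73682502), the creatine transporter, was at 6.40, 15.75 and 10.04 CPM in KO and 4.89, 5.54 and 5.54 CPM in WT (log2 fold change 1.01 ± 0.316, adjusted p = 0.11).

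Slc6a12 and Slc6a13 are neighbours on chromosome 6 (121343076 to 121365775 and 121300227 to 121337733) and encode the betaine and GABA carrier BGT1 and the GABA and taurine carrier GAT2. Their levels differed in opposite directions. Slc6a12 was at 86.3, 106.2 and 110.1 CPM in KO 1 to 3 and at 83.0, 71.3 and 62.9 CPM in WT 1 to 3, and Slc6a13 was at 193, 128 and 168 CPM in KO and at 225, 204 and 203 CPM in WT. For neither gene did the groups overlap, and neither passed the threshold, with log2 fold changes of 0.48 ± 0.161 (adjusted p = 0.127) and -0.37 ± 0.185 (adjusted p = 0.256) in edgeR. Slc6a9, the glycine transporter GlyT1, was at 15.5 to 47.6 CPM in KO and 24.6 to 38.9 CPM in WT, and its KO libraries lay on both sides of WT.

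Slc6a16, an orphan member of the family, was just inside the limit on level. It had 0 counts in KO 2 and KO 3, 0.81 CPM in KO 1 and 0.34, 1.97 and 1.60 CPM in WT 1 to 3. Against a floor of 3 counts per library it was at least 30.3-fold lower in KO 2 and KO 3 than in WT 2 and WT 3, whereas KO 1 was above WT 1. Its pooled change had an adjusted p of 0.363 in edgeR.

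No member known from lysosomes or from amino acid sensing passed the threshold. Slc36a1 (chromosome 11, 55204350 to 55236330), the proton-coupled carrier PAT1, was at 26.8, 17.5 and 19.8 CPM in KO 1 to 3 and at 33.7, 32.0 and 38.9 CPM in WT 1 to 3. All KO libraries were below all WT libraries, with a difference in log2 of -0.71 ± 0.182 (SE, adjusted p = 0.0762 in edgeR) and of -0.93 ± 0.138 (adjusted p = 0.00686) in the refit of the libraries with Y-linked counts. Slc36a4, a related carrier, had a log2 fold change of -0.33 ± 0.198 (adjusted p = 0.325). Slc38a7, a lysosomal glutamine exporter, was at 12.9 to 15.6 CPM in KO and 16.0 to 21.6 CPM in WT (adjusted p = 0.282). Slc38a9, the lysosomal arginine sensor upstream of mTORC1, was at 8.45 to 10.2 CPM in KO and 8.28 to 8.87 CPM in WT, with a log2 fold change of 0.11 ± 0.135 (adjusted p = 0.624).

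**Figure D3:**
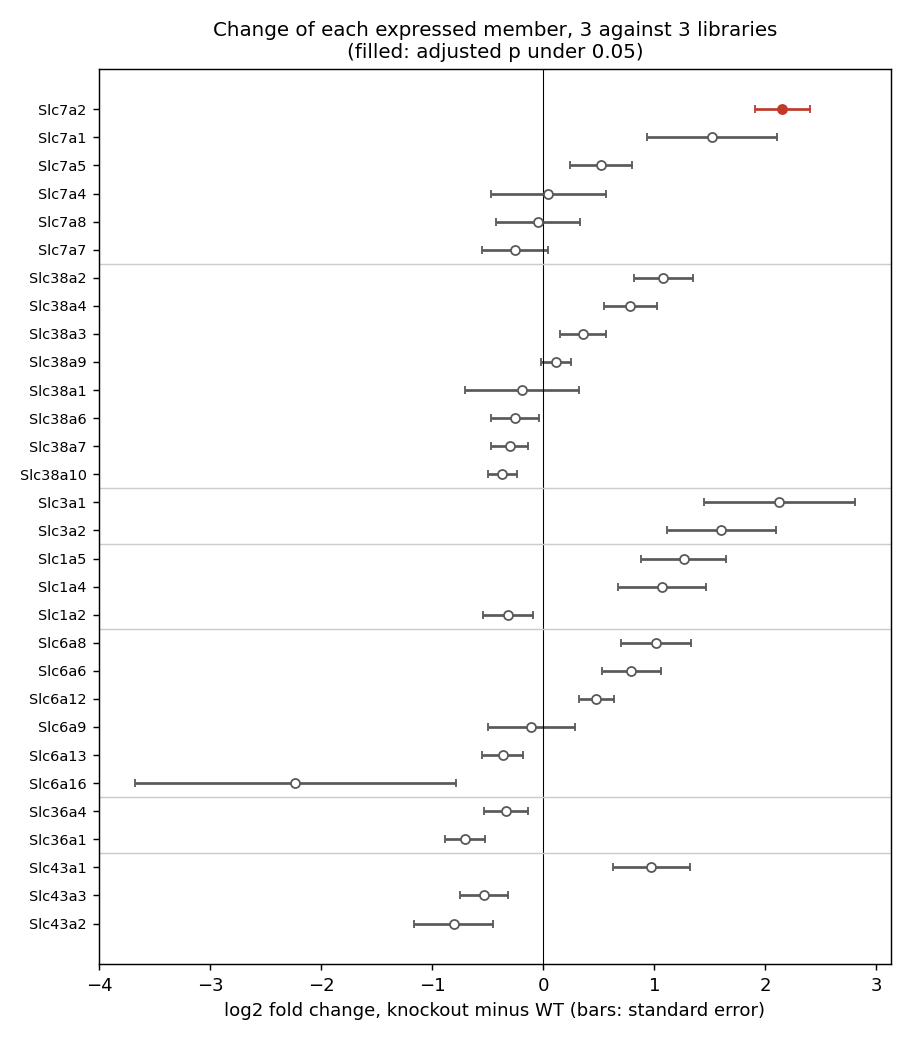
Log2 fold change of KO against WT for the 30 expressed members over all 6 libraries, grouped by family from Slc7 at the top to Slc43 at the bottom, with standard errors from edgeR. Slc7a2, at 2.15, is the only filled point, and Slc3a1, at a similar 2.13, has an error of 0.677 against 0.247 for Slc7a2.

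The 31 members under 0.5 CPM included 12 with 0 counts in every library, among them Slc6a14, Slc6a18, Slc7a10, Slc7a12 and Slc7a13. A count of 0 allows a level of up to 3 counts, or 0.0534 to 0.0629 CPM of the unscaled totals, for counting error only. Just below the limit was Slc7a11, which encodes xCT, the cystine and glutamate exchanger, at a mean of 0.475 CPM, and then Slc7a6 at 0.34 CPM. Just above it were Slc6a16 and Slc7a4. Slc7a11 had 1, 141 and 11 counts in KO 1 to 3 and 3, 0 and 0 counts in WT 1 to 3, so its level rests almost wholly on KO 2. It did not pass the filter on low counts and was not tested. Others under the limit included Slc1a1, Slc1a3, Slc1a6, Slc1a7, Slc6a2 to Slc6a5, Slc6a7, Slc6a11, Slc6a15, Slc6a17, Slc6a19, Slc6a21, Slc7a3, Slc7a9, Slc7a14, Slc7a15, Slc36a2, Slc36a3, Slc38a5, Slc38a8 and Slc38a11.

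Summed over the 61 genes, the transporters took 6173, 6073 and 8301 CPM in KO 1 to 3 and 3898, 3966 and 3495 CPM in WT 1 to 3. As a share of all counts this was 0.641% to 0.769% in KO and 0.343% to 0.398% in WT. Slc38a4, Slc38a3 and Slc7a2 made up 72.9% to 82.7% of the sum in KO and 69.6% to 72.9% in WT. These sums are counts and not levels per length, so long transcripts weigh more.

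**Figure D4:**
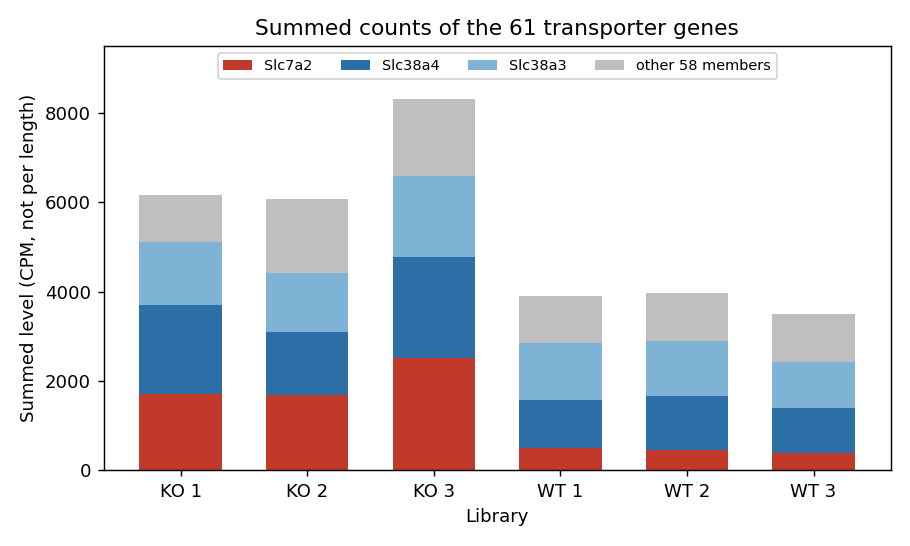
Summed CPM of the 61 transporter genes in each library, split into Slc7a2, Slc38a4, Slc38a3 and the other 58; the values are not per length. All KO libraries, at 6073 to 8301 CPM, stand above all WT libraries, at 3495 to 3966 CPM, and the Slc7a2 part is the one that differs most.

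The difference between KO and WT was also compared between the 2 subsets of libraries. With 1 library per group on the Xist side, all the spread in this fit comes from the other 4 libraries, and KO 1 and WT 1 are assumed to vary as those do. Under that assumption an interaction of group and Xist state was called by edgeR for 3 of the 30 members, Slc3a1, Slc43a1 and Slc6a16, against 2.75% of all genes. For Slc6a16 it rests on the 0 counts of KO 2 and KO 3. At an unadjusted p under 0.05 there were 11 members, against 20.9% of all genes. Between KO 1 and WT 1, and then among the other 4 libraries, the log2 ratio was 0.25 and 2.42 for Slc3a1 and -0.20 and 1.55 for Slc43a1. The same values were -0.45 and 2.06 for Slc7a1 and 0.12 and 1.96 for Slc3a2, whose interactions had adjusted p-values of 0.108 and 0.165. Of the 30 members 22 had the same sign in both subsets and 8 opposite signs. No share over all genes is given for this count, so it cannot be set against a background.

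In the refit of the 4 libraries with Y-linked counts, edgeR called 11 members higher and 4 lower, which is 50% of the 30, against 17.2% and 16.1% of all genes. The higher ones were Slc7a2, Slc38a2, Slc6a6, Slc3a1, Slc6a12, Slc3a2, Slc1a4, Slc6a8, Slc43a1, Slc1a5 and Slc7a1, and the lower ones Slc38a10, Slc36a1, Slc43a2 and Slc6a16. Slc38a4 and Slc38a3, the most abundant members, were not among them, with adjusted p-values of 0.107 and 0.185. This refit has 2 libraries in each group. The fit with replicate number as a block called 0 members, against 0.722% of all genes.

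**Figure D5:**
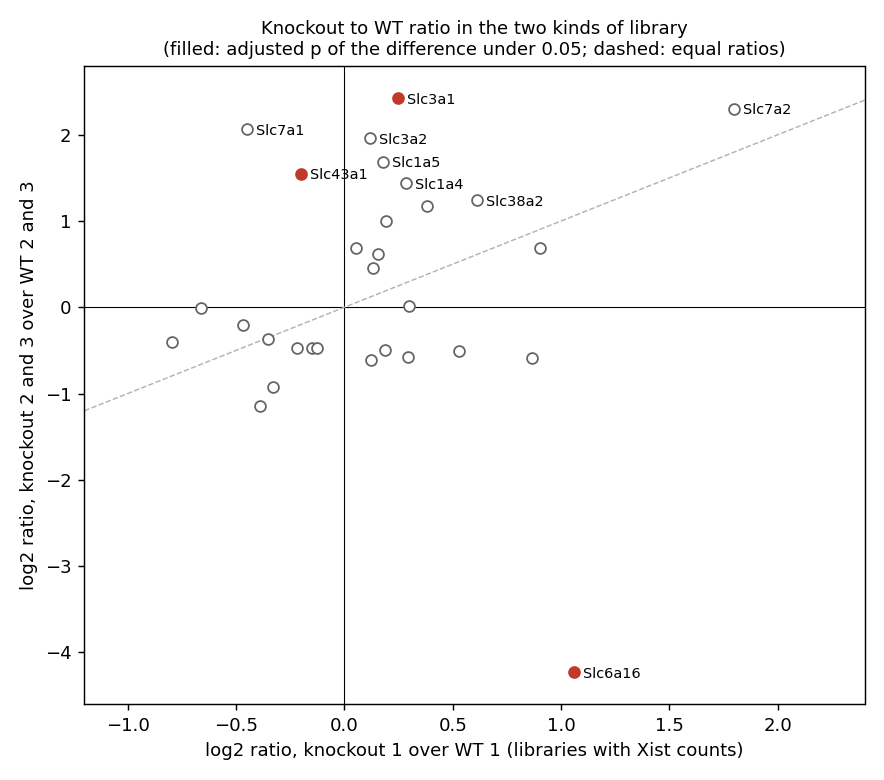
Log2 ratio of KO over WT for each expressed member between KO 1 and WT 1, the pair with Xist counts (horizontal), and among the 4 libraries with Y-linked counts (vertical), with an offset of 0.1 CPM. Slc7a2 lies near the line of equal ratios at 1.80 and 2.30, whereas Slc3a1, Slc43a1 and Slc6a16, the filled points, lie far from it.

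Other genes of amino acid handling were taken from lists written with earlier results of these data known. Among partners in glutamine and ammonia metabolism, 7 of 15 were called as higher and 0 as lower in edgeR, against 2.15% and 1.22% of all genes, and DESeq2 and limma voom also called 0 as lower. In the fit without KO 1, and in the refit of the libraries with Y-linked counts, 1 was called as lower. Those fits called 13.9% and 16.1% of all genes as lower. The count of 7 was 10 without KO 1 (16.2% of all genes were higher in that fit), and 2 without KO 2 or KO 3. It was 3 without WT 1, 0 without WT 2 or WT 3, and 1 with the replicate block. The called genes were Oat, Gls2, Got1, Slc25a15, Ass1, Asl and Gpt2. Oat, the ornithine aminotransferase gene, was at 3832, 3568 and 4983 CPM in KO 1 to 3 and at 538, 537 and 482 CPM in WT 1 to 3 (log2 fold change 2.99 ± 0.236, adjusted p = 0.0047), and its ornithine substrate is also carried by the product of Slc7a2. Gls2, the liver glutaminase gene, was higher by 2.12 ± 0.237 in log2 (adjusted p = 0.0132), and Got1, the cytosolic aspartate aminotransferase gene, by 3.19 ± 0.431 (adjusted p = 0.0214). Slc25a15, the mitochondrial ornithine carrier, was at 836, 1226 and 1276 CPM in KO and 357, 385 and 339 CPM in WT, a difference of 1.63 ± 0.22 in log2 (adjusted p = 0.0215). The list had a median log2 fold change of 1.63, against 0.01 over all genes.

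Of 14 tested genes in a list of other carriers, 1 was called as higher, Slc25a15, and 1 as lower, Slc33a1, against 2.15% and 1.22% of all genes. Slc33a1 encodes a carrier of acetyl-CoA rather than of amino acids (log2 fold change -0.82 ± 0.143, adjusted p = 0.0383). Slc16a10, the aromatic amino acid carrier TAT1, chosen after its values were seen, was at 147, 175 and 234 CPM in KO and 116.5, 95.6 and 93.8 CPM in WT (0.86 ± 0.207, adjusted p = 0.0687). Slc25a12 and Slc25a22, mitochondrial carriers of aspartate and glutamate, had log2 fold changes of 1.19 ± 0.244 and 1.53 ± 0.318 (adjusted p = 0.0519 and 0.0525). The median of this list was 0.04, and 8 of its genes had an unadjusted p under 0.05 in edgeR, against 26.2% of all genes. DESeq2 called 5 genes of the list higher and 3 lower, scaling by library size alone 3 and 1, and the fit without KO 1 gave 5 and 5. Of all genes DESeq2 called 7.98% and 6.45%, and the fit without KO 1 called 16.2% and 13.9%. Leaving out any one of the other 5 libraries gave 0 and 0.

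The list of the amino acid response, in which the kinases GCN2 and PERK act through ATF4, had a median of 0.97 in log2. In edgeR 1 of 22 tested genes was called as higher and 0 as lower, against 2.15% and 1.22% of all genes. At an unadjusted p under 0.05 in edgeR there were 9, against 26.2%. DESeq2 called 7 higher and 0 lower, against 7.98% and 6.45%. Without KO 1 the counts were 10 and 1, against 16.2% and 13.9% of all genes. Without WT 1 they were 2 and 0, against 1.75% in either direction. Without KO 3, WT 2 or WT 3 no gene of the list was called. The called gene was Atf5, at 613, 704 and 605 CPM in KO and 206, 145 and 150.5 CPM in WT (1.94 ± 0.203, adjusted p = 0.0109). Asns, the asparagine synthetase gene, was at 14.0, 47.5 and 43.7 CPM in KO and 0.651, 4.55 and 7.16 CPM in WT (3.09 ± 0.835, adjusted p = 0.083). Ddit4 was at 6.30, 59.2 and 22.7 CPM in KO and 3.55 to 4.47 CPM in WT, so that, as for Slc3a2, KO 2 was highest and KO 1 nearest to WT. Atf4 itself, chosen after its values were seen, was at 68.7 to 121.9 CPM in KO and 67.2 to 91.8 CPM in WT (adjusted p = 0.429).

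In the list of amino acid sensing upstream of mTORC1, 0 of 21 tested genes were called by edgeR. In edgeR 6 had an unadjusted p under 0.05, against 26.2% of all genes. DESeq2 called 2 and limma voom 1 as lower, against 6.45% and 1.22%. Without KO 1, 4 genes of the list were called higher and 3 lower, against 16.2% and 13.9% of all genes. The median of the list was -0.11. Castor2, which encodes a cytosolic arginine sensor, was closest, at 0.58 to 1.87 CPM in KO and 3.98 to 5.13 CPM in WT (adjusted p = 0.0558). Over all 16 lists together 12 genes were called as higher and 3 as lower, against 2.15% and 1.22% of all genes. Some genes, such as Oat, are on more than 1 list, and the number tested is not given here. These counts were 39 and 56 without KO 1, 3 and 0 without KO 2, 2 and 0 without KO 3, 8 and 7 without WT 1, and 0 and 0 without WT 2 and without WT 3. Of all genes 16.2% and 13.9% were called without KO 1. Without KO 2, KO 3, WT 1, WT 2 and WT 3 the shares in either direction were 0.579%, 0.233%, 1.75%, 0.0402% and 0.133%.

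Markers of zonation and of other cell types were read in the same libraries, and their part in the transporter values was not tested. Set beside each marker list, all genes tested had 2.15% called as higher and 1.22% as lower in edgeR. At an unadjusted p under 0.05 in edgeR the share was 26.2%. DESeq2 called 7.98% and 6.45%, and edgeR without KO 1 called 16.2% and 13.9%. Without KO 2, KO 3, WT 1, WT 2 and WT 3 the shares in either direction were 0.579%, 0.233%, 1.75%, 0.0402% and 0.133%. Periportal genes had a median of 0.98 in log2, with 5 of 17 called as higher and 0 as lower, yet their summed level was 77800, 41160 and 66250 CPM in KO 1 to 3 and 110800, 84890 and 70830 CPM in WT 1 to 3. DESeq2 called 11 of them higher and 3 lower. In edgeR the count of 5 higher was 11 without KO 1, beside 3 lower, and 1 without KO 2 or KO 3, 2 without WT 1, and 0 without WT 2 or WT 3. Pericentral genes had a median of -0.91, with 13 of 16 negative and 9 at an unadjusted p under 0.05, and summed to 5838 to 10670 CPM in KO and 13030 to 14710 CPM in WT. Among them edgeR called 1 as higher, Oat, and 1 as lower, Cyp1a2, while DESeq2 called 6 lower and the fit without KO 1 called 10 lower. Cyp1a2 was not called without KO 2, KO 3, WT 2 or WT 3, and Oat was not called without WT 2 or WT 3. Genes of sex-biased expression had a median of -3.17, with 0 of 12 called in edgeR, 6 at an unadjusted p under 0.05 and 4 called as lower in DESeq2. Without KO 1 edgeR called 4 lower, without WT 1 it called 2 higher and 5 lower, and the list summed to 953 to 1864 CPM in KO and 2111 to 12960 CPM in WT. Endothelial markers summed to 101 to 161 CPM in KO and 191 to 263 CPM in WT, and all 8 had a negative log2 fold change, with 0 called in edgeR, 7 at an unadjusted p under 0.05, 4 called as lower in DESeq2 and 7 without KO 1.

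Macrophage markers summed to 105 to 233 CPM in KO and 144 to 198 CPM in WT, stellate cell markers to 103 to 258 and 192 to 433 CPM, and bile duct markers to 30.9 to 86.0 and 53.0 to 85.6 CPM. Lymphocyte markers summed to 4.50 to 10.5 CPM in KO and 7.15 to 10.4 CPM in WT, neutrophil markers to 1.06 to 2.18 and 0.81 to 1.16 CPM, and erythroid genes to 42.1 to 255.5 and 188 to 432 CPM. For each of these 6 lists 0 genes were called in edgeR, and 0, 0, 1, 1, 1 and 0 genes had an unadjusted p under 0.05. DESeq2 called 1 bile duct gene as lower and no gene of the other 5, and limma voom called none. Without KO 1, edgeR called 5 macrophage, 4 stellate cell, 2 bile duct, 4 lymphocyte and 4 erythroid genes as lower and 1 neutrophil gene as higher. That fit called 13.9% of all genes as lower and 16.2% as higher. In the fit of all libraries 8 macrophage, 8 stellate cell, 7 bile duct, 7 lymphocyte, 3 neutrophil and 5 erythroid genes were tested. Of the hepatocyte markers 4 of 8 had a positive and 4 a negative log2 fold change, with a median of -0.39. Tat was called as higher and none as lower in edgeR, with 4 of the 8 at an unadjusted p under 0.05. DESeq2 called 2 of the 8 higher and 3 lower, limma voom 1 and 1, and the fit without KO 1 gave 2 and 4, while leaving out any one of the other 5 libraries gave 0 and 0. Of the 6 early response genes 1, Hspa1b, was called as lower, and they summed to 36.3 to 74.5 CPM in KO and 47.3 to 56.3 CPM in WT.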

How the data were processed

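Liver polyA RNA of 6 mice, 1 library each, was sequenced as paired reads of 76 nt in a single pool, as the labels' protocols state. What the authors deposited is a table of RSEM expected counts (estimated counts, not scaled for depth or length) for 55450 genes, with 1 column per library and 0 columns left without a sample. The submitters' processing notes name bcl2fastq 2.17, cutadapt 1.18, STAR 2.7.0f, RSEM 1.3.1 and the build mm9. All 55450 identifiers, with versions, are in GENCODE M21 on GRCm38, so positions and exon lengths come from that annotation, and no mm9 coordinate is given. The use of strand is not given in the sources used here, and counts of genes that share exons on opposite strands are uncertain.

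Counts were rounded. Genes were kept by filterByExpr, scaled by TMM, and tested with edgeR 4.0.16 (glmQLFit, glmQLFTest, group as the only term, R 4.3.3), with Benjamini-Hochberg adjustment over 14539 genes and a threshold of 0.05. The test was tried on simulated data. With a dispersion factor of 1 it recovered 8.08% of 99 genes changed 2-fold and 69% of 100 genes changed 4-fold. Of its 81 calls 4.94% were false. With a factor of 0.25 it recovered 68.4% and 96.9%. A member that was not called can thus still differ by 2-fold. SE is the log2 fold change divided by the square root of F. Level per kb divides CPM by the union of annotated exons. Alternatives used DESeq2 1.42.0, limma 3.58.1 voom, other scalings and filters, a replicate block, an Xist term (at least 1000 Xist counts) and subsets of libraries. Groups and replicate numbers come from titles. The numbers mark different animals. The labels state no pairing, and same-numbered libraries were not treated as pairs. Such libraries deviated from their group means with correlations across genes of 0.178, 0.0443 and 0.0678. With 3 libraries per group these values cannot settle whether the mice were matched, and KO 1 and WT 1 share the Xist counts. No library repeated another (lowest chi-square per degree of freedom 31.3).

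The members and the 16 context lists were chosen with earlier results of these data known. Values are given in full for members past the threshold, for the 5 largest changes not past it and for the 10 highest levels per kb, and more briefly for the others. Promoter windows are from RefSeq on GRCm38.p6. Not every member below the limit on level is reported here by name.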

Additional observations from a re-analysis of the deposited data

Results flagged for a closer look

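For 3 members the interaction of group with Xist state passed the threshold in edgeR. The side with Xist counts has 1 library per group, so the spread comes only from the other 4 libraries, and the test assumes that KO 1 and WT 1 vary as those do. It is no replicated comparison of the 2 subsets. The interaction, the log2 fold change in the pair with Xist counts minus that in the other 4 libraries, was -2.18 for Slc3a1 (adjusted p = 0.0146), -1.78 for Slc43a1 (adjusted p = 0.0257) and 10.79 for Slc6a16 (adjusted p = 0.0199). For Slc3a1 and Slc43a1 KO 2 and KO 3 stood above the WT libraries and KO 1 did not. The value for Slc6a16 is set by the 0 counts of KO 2 and KO 3 and has no reading as a fold. With 1 library of each group in that pair, the state and these individual mice cannot be told apart. KO 1 also had the highest Stk11 level of the KO libraries, at 22.2 CPM against 14.4 and 11.4 CPM in KO 2 and KO 3. The part of this difference was not tested.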

How the results depend on the processing

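The call of Slc7a2 held in 12 of 15 alternatives, with log2 fold changes from 1.93 to 2.32 in all of them, and was lost without WT 2, without WT 3 and with the replicate number as a block (adjusted p = 0.0608). The replicate block (log2 fold change of Slc7a2 2.13) called 0 members as higher or lower, with 11 at an unadjusted p under 0.05, 79 and 26 of all genes, and 4 and 0 of the list genes; only KO 1 correlated best with its own number, and the labels give no pairing. DESeq2 called 9 members as higher and 1 as lower, 1240 and 1002 of all genes and 31 and 26 list genes. An added term for Xist state gave 2 and 1 members, 779 and 725 of all genes and 19 and 21 list genes, and the libraries with Y-linked counts gave 11 and 4 members, 2508 and 2342 of all genes and 44 and 62 list genes. Without a filter on low counts 488 and 290 of all genes and 10 lower list genes were called, and 7 members had an interaction. For that fit no share of all genes with an interaction is given, so the 7 cannot be set against a background. In limma voom 5 lower list genes were called. The cause was not tested.

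Leaving out 1 library in turn gave 0 to 10 members as higher and 0 to 3 as lower, 5 to 2403 and 1 to 2061 of all genes, and 0 to 39 and 0 to 56 list genes. Stk11 had log2 fold changes of -2.37 to -1.87, and its call was lost without KO 2, KO 3, WT 2 or WT 3. Directions changed only for 4 members that were never called. Slc6a9 was at 0.0315 in the Y-linked libraries and at -0.58 to 0.21 with 1 library left out, Slc7a8 at 0.0083 with library size alone and at -0.58 to 0.19, and Slc38a1 at -0.45 to 0.22. Slc7a4 was at -0.117 in limma voom, -0.11 with the replicate block, -0.14 with the Xist term, -0.72 in the Y-linked libraries and -0.67 to 0.37 with 1 library left out. The number of expressed members was 31 on unscaled totals, where Slc7a11 entered, and 28 at a mean of 1 CPM. Of the 31 members under 0.5 CPM, 29 had too few counts to pass the filter.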
